A study of Sus scrofa with 33 samples.

Results

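Pituitary glands of Large White (LW) and Creole (CR) pigs kept under thermoneutral conditions (TN) were compared on 5 arrays per breed, which are 10 of the 33 arrays of the series. The arrays were chosen by their titles, which name the breed and the temperature, and no animal of the comparison had been exposed to heat. The study arrayed the pituitary of castrated male growing pigs of LW, CR and their F1 cross, sampled either at 24 °C (TN) or after exposure to heat (HS, 30 °C in the labels, whereas the study's text states a higher temperature). LW is a widely used commercial pig breed and CR is the local breed of Guadeloupe, where the animals were raised. Each array held the RNA of 1 animal. By the methods of the study, pigs of 1 breed shared pens and were arranged in blocks of littermates, so that breed cannot be told apart from pen and family here, and the HS animals may be littermates of the TN animals. The p-values measure the spread between these animals only. The question was which named genes and functions separated the breeds without heat, and whether several probes of a gene agreed.

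The pituitary is the gland below the brain that sets the pace of growth, reproduction, lactation, the stress response and the thyroid. Its anterior lobe holds separate cell types for growth hormone, prolactin, corticotropin, the gonadotropins and thyrotropin, among folliculostellate cells, vessels, connective tissue and immune cells. The labels call the samples pituitary gland, and by the study's methods the tissue was taken from the anterior lobe. Of 40 markers listed for these cells and for the posterior and intermediate lobes, 36 were measured, 35 were well above background on all 10 arrays (PDGFRA, a fibroblast gene, was so on 7), and 0 were called between the breeds on their brightest probe. The posterior lobe hormones were among those above background on every array, although that lobe lies outside the stated dissection. On its brightest probe AVP (vasopressin) averaged 16.94 ± 0.10 in LW and 16.98 ± 0.08 in CR (SD, n = 5). OXT (oxytocin) averaged 15.70 ± 0.12 and 15.71 ± 0.08 on its brightest probe. The second AVP probe was more variable, at 8.84 ± 1.05 in LW and 8.10 ± 0.78 in CR. In such bulk tissue, fewer cells of a type and less RNA per cell cannot be told apart.

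Values below are the deposited log2 values, so that a difference of 1 is a 2-fold difference, and differences are LW minus CR. A probe is a 60-base sequence on the array, and a gene may have several. Probes of a gene are numbered from the brightest to the dimmest, and levels are compared between animals on 1 probe, never between probes. A probe was called when the p-value of limma's moderated test, adjusted by Benjamini-Hochberg over all 45667 probes, was under 0.05.

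On 2 arrays, LW TN 2 and CR TN 1, values departed from their groups together. The correlation of their deviations from the group means was 0.67 across probes, while other pairs of an LW and a CR array ranged from −0.48 to 0.36. On 539 probes both arrays were more than 2-fold above the other 4 of their group and on 149 both were more than 2-fold below. None of these probes was called, but such gaps widen the spread within both groups, so that nothing is read from this. TSHB, the beta chain of thyrotropin, was lowest on both. Genes raised on both included CRYM (2.73 log2 units above the other LW arrays and 2.97 above the other CR arrays), ADM (2.49 and 2.41), OTX2 (2.30 and 2.34) and PTGDS (2.14 and 2.54), all chosen after their values were seen. Markers of several cell types moved with them. The folliculostellate markers SOX9 (9.19 on LW TN 2 and 9.63 on CR TN 1, others 6.77 to 8.76), ALDOC (15.40 and 15.41, others 13.81 to 14.52) and S100B (15.22 and 15.26, others 14.14 to 14.74) were highest on these arrays. So were NKX2-1 of the posterior lobe (9.09 and 9.58, others 7.56 to 8.07) and VWF of the endothelium (12.53 and 12.44, others 10.77 to 11.83). The second AVP probe was highest there too (10.38 and 9.46, others 7.50 to 9.40). The gonadotroph genes FSHB and LHB were lowest on them within each breed on their brightest probes. So was POU1F1 (10.58 and 11.18), a lineage transcription factor listed here among the markers of growth hormone cells but not specific to them. The part of tissue composition in the results was not tested. Both arrays lay on slide 2, which also held arrays of other groups, among them F1 TN 1, LW HS 1 and CR HS 2. TSHB averaged 15.50 ± 0.30 in F1 TN, 14.18 ± 0.37 in LW HS and 15.91 ± 0.28 in CR HS (SD). The part of the slide in the departure was not tested. Because of the shared departure, results are also given without both arrays, an alternative chosen after seeing the data.

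Of 45667 probes, 294 were called between the breeds (0.644%), 175 higher in LW (0.383%) and 119 lower (0.261%). At an unadjusted p under 0.05 there were 4329 (9.48%). The LW and CR arrays did not overlap on 288 of the 294, against 2.53% of all probes. The 294 were chosen by p-values from the same arrays, which favour such gaps, and nothing is read from this share. The called differences were of 0.38 to 4.04 log2 units with a median of 0.83, and 102 exceeded 2-fold. Names were attached to 141 of the 294. They represented 99 of 11563 named genes (0.856%), 63 higher in LW, 35 lower and TIAM1 with a probe in each direction. Without LW TN 2 and CR TN 1, 442 probes were called, 234 of them among the 294.

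Both breeds were present on 4 slides. With slide as a fixed block 369 probes were called, of which 190 were among the 294. Slide as a random block gave 823 calls and array weights 809. Leaving out 1 array at a time gave between 130 calls (without LW TN 5) and 422 (without LW TN 2), and 104 of the 294 were called in all 10 of these fits. The number of calls therefore depended on single animals.

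Genes with every probe called are described first. The widest of their differences was in OAZ3. It encodes an antizyme, an inhibitor of polyamine synthesis best known from male germ cells, and lies on chromosome 4 from 97439993 to 97448493 (RefSeq annotation of Sscrofa11.1, used for all positions here). On its brightest probe the LW arrays 1 to 5 read 11.32, 10.73, 11.35, 10.72 and 10.95, and the CR arrays 8.51, 8.06, 8.60, 7.94 and 8.03. Every LW array was thus more than 2 log2 units above every CR array. The difference was 2.79 (SE 0.17, limma adjusted p 3.4e-05), a 6.90-fold higher level in LW. The gene had 3 probes of 2 different sequences, and the others differed by 2.81 and 2.27. All 3 were called in each of the 10 fits without 1 array. In F1 TN animals the brightest probe was spread between the parents, at 9.89 ± 0.89 (SD, n = 6).

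The first 30 bases of the distinct probe sequences are shown for OAZ3, CLDN12, CALCR and KIT, the genes with the widest differences among those whose different sequences were all called, to show that the readings were not repeats of 1 oligonucleotide. They are given 5′ to 3′ as deposited with the scanner files, and the probes' places within the transcripts were not determined. In the last KIT pair, capitals mark the bases that both probes share.
OAZ3 probes 1 and 2: atgtggactccgtgtttgtgaatttccaaa
OAZ3 probe 3: ttgttataaaagcatcacttataaagaaca
CLDN12 probes 1 and 2: atcgaaattgacattccagtagtttcacac
CLDN12 probe 3: aagaagtttgagccagtctttgcatttgac
CALCR probe 1: acatgtcatctttgtatcttctgctactgc
CALCR probe 2: tggtcaacttcttctttttgctcaacatcc
KIT probes 1 and 2: tcatgttcacatatttgaggggggaaaacc
KIT probe 3: ttttactcctgacctggtttctaagtagtt
KIT probe 4: TTGAGAAGCAGATTTCGGAGAGCACCAatc
KIT probe 5: tgaTTGAGAAGCAGATTTCGGAGAGCACCA

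KIT, the receptor tyrosine kinase for stem cell factor, is needed for pigment cells, germ cells and mast cells, and its gene region underlies the dominant white coat of LW pigs. It lies on chromosome 8 from 41402334 to 41492306. On its brightest probe the LW arrays read 11.21, 11.35, 10.70, 10.61 and 11.37 and the CR arrays 9.63, 9.31, 9.49, 9.30 and 9.18. The lowest LW array stayed nearly 1 log2 unit above the highest CR array. The difference was 1.67 (SE 0.16, limma adjusted p 0.0011), or 3.18-fold. Its other 4 probes differed by 1.71, 1.63, 1.05 and 0.93, and all 5 were called in every fit without 1 array. Probes 1 and 2 share 1 sequence and probes 4 and 5 overlap in the bases shown, so the 5 probes read about 3 separate stretches. F1 TN animals lay midway with little spread, at 10.28 ± 0.10 (n = 6). KITLG, the ligand of KIT, differed by −0.21 and −0.20 on its 2 probes of 1 sequence, with 3 of 5 LW arrays well above background, and was not called (limma adjusted p 0.65 and 0.79).

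CLDN12, a claudin of tight junctions (chromosome 9, 70499770 to 70510082), read 11.95, 10.76, 11.21, 11.15 and 11.52 in LW and 9.56, 9.62, 9.67, 9.78 and 9.68 in CR. The CR arrays lay within a narrow band and every LW array was above it. The difference was 1.66 (SE 0.18, limma adjusted p 0.0026), or 3.15-fold, and the other probes differed by 1.68 and 1.54. The probe of the second sequence lost its call without CR TN 4 or LW TN 5 (adjusted p up to 0.055), while the others kept theirs in all 10 fits.

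CALCR encodes the calcitonin receptor, which together with accessory proteins also binds amylin (chromosome 9, 73279874 to 73403516). Its brightest probe read 12.87, 13.33, 12.79, 13.16 and 12.50 in LW and 11.70, 11.53, 11.44, 10.47 and 11.49 in CR. The groups did not overlap, and CR TN 4 was the lowest of all. The difference was 1.61 (SE 0.23, limma adjusted p 0.012), or 3.05-fold, and the second probe differed by 0.88 (adjusted p 0.015). Both were called in all 10 fits without 1 array.

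The other genes with every probe called had smaller differences. MSRB2, a mitochondrial methionine sulfoxide reductase, was higher in LW by 0.81 and 0.93 (limma adjusted p 0.019 and 0.0042). Its LW arrays ranged from 11.39 to 11.67 on the brightest probe and its CR arrays from 10.41 to 11.11, and that probe lost its call without CR TN 5, LW TN 3, LW TN 4 or LW TN 5 (adjusted p up to 0.062). IGFBP5, a binding protein for insulin-like growth factors, was higher by 0.53 and 0.68 (adjusted p 0.021 and 0.047). Its brightest probe ranged from 14.10 to 14.46 in LW and from 13.64 to 13.84 in CR. That probe lost its call without LW TN 1 or LW TN 5 (adjusted p up to 0.060), with all groups in the fit (0.145) and with processed signals scaled to the 75th percentile (0.083), and the second probe kept its call in 2 of 10 fits. NLGN3, a synaptic adhesion protein encoded on chromosome X, was the only gene of the 7 lower in LW. Its 3 probes carry the same 60 bases and differed by −1.13, −1.01 and −1.22 (limma adjusted p 0.0010, 0.0025 and 0.00017), with LW arrays at 5.84 to 6.12 and CR arrays at 6.84 to 7.36 on the brightest. All 3 were called in each fit without 1 array.

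**Figure D1:**
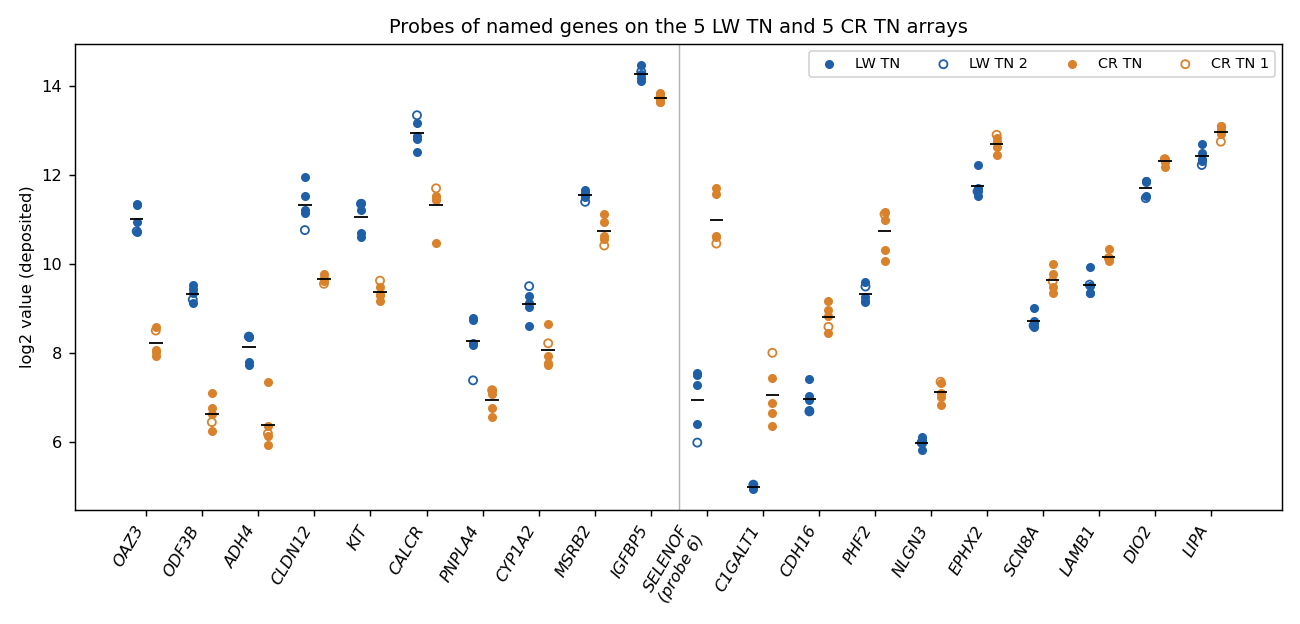
Deposited log2 values (y axis) of each TN array for named genes, with LW TN and CR TN arrays as separate points and open symbols for LW TN 2 and CR TN 1. The groups do not overlap on probes such as OAZ3, where LW lay between 10.72 and 11.35 and CR between 7.94 and 8.60, or KIT, where LW lay between 10.61 and 11.37 and CR between 9.18 and 9.63.

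Among genes with a single probe, for which no second reading existed, the widest increases were in ODF3B, ADH4 and PNPLA4. ODF3B, related to a structural protein of the sperm tail (chromosome 5, 215972 to 217973), read 9.12, 9.20, 9.35, 9.44 and 9.53 in LW and 6.46, 6.77, 7.10, 6.25 and 6.64 in CR. Each LW array was at least 2 log2 units above each CR array. The difference was 2.69 (SE 0.15, limma adjusted p 1.7e-05), or 6.44-fold, and F1 TN lay with LW at 9.40 ± 0.43 (n = 6). ADH4, an alcohol dehydrogenase that also oxidises retinol, read 8.36, 8.37, 7.81, 7.73 and 8.37 in LW and 6.20, 7.35, 6.37, 5.94 and 6.14 in CR. CR TN 2 lay above the other CR arrays but below all LW arrays, and the difference was 1.73 (SE 0.25, limma adjusted p 0.012), or 3.31-fold. Both ODF3B and ADH4 kept their calls in all 10 fits. PNPLA4, a lipase with retinyl ester hydrolase activity encoded on chromosome X, read 8.23, 7.39, 8.75, 8.78 and 8.19 in LW against 7.17, 6.56, 6.78, 7.17 and 7.08 in CR. LW TN 2 was closest to the CR range. Its difference of 1.31 (SE 0.24, limma adjusted p 0.037) was called in only 1 of the 10 fits, that without LW TN 2, and elsewhere its adjusted p rose to as much as 0.095. With slide as a fixed block it was 0.082.

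The widest decreases among genes with 1 probe, leaving out LOC symbols, were in C1GALT1, CDH16 and PHF2. LOC100157935 had a called probe at −1.83. C1GALT1, the enzyme that extends O-linked sugar chains, was not well above background on any LW array (4.95 to 5.05) and read 8.01, 6.37, 7.45, 6.88 and 6.65 in CR. LW therefore has only a bound, and the level was at least 3.77-fold lower in LW than in CR (limma adjusted p 0.0049). The bound sets the mean of CR against, for each LW array, its dimmest reading that still passed the background test, or the probe's own where higher. F1 TN animals resembled LW, at 5.00 ± 0.14 (n = 6). CDH16, a kidney-type cadherin also present in the thyroid, read 7.05, 6.70, 6.96, 6.72 and 7.42 in LW and 8.59, 8.46, 8.96, 9.18 and 8.84 in CR. With no overlap, the difference was −1.84 (SE 0.17, limma adjusted p 0.00054), 3.57-fold lower. PHF2, a histone demethylase, ranged from 9.15 to 9.59 in LW and from 10.07 to 11.16 in CR, a difference of −1.40 (limma adjusted p 0.015). All 3 kept their calls in each fit without 1 array.

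Agreement between probes was examined in the 72 called genes with several probes. All probes were called in 1 direction in 7 genes, some were in 64, and TIAM1 had calls in both directions. When probes with the same 60 bases were counted once, 70 genes had several distinct sequences, and every sequence was called in 6 of them. In 17 genes at least 2 distinct sequences were called. The 64 partly called genes had 181 uncalled probes, of which 154 (85.1%) had the sign of the called probe and 101 (55.8%) also an unadjusted p under 0.05. In 45 of the 64 genes every uncalled probe had the sign, in 24 every one also had such a p, and in 19 no uncalled probe had an unadjusted p under 0.05. These shares describe the genes chosen by the call and carry no test.

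As a yardstick for the repeatability of a reading, the difference between breeds was compared within pairs of probes of 1 gene. Over 994 pairs with the same 60 bases the median gap was 0.035 log2 units and the 95th percentile 0.16. Over 870 pairs whose sequences overlapped with 1 to 6 mismatches these were 0.039 and 0.24, and over 31820 pairs with different sequences 0.073 and 0.37. A gap of 1 log2 unit between probes of a gene was therefore far outside the gap of repeated sequences.

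Several partly called genes had most of their probes moving together. They were chosen after their values were seen. IVNS1ABP, an actin-associated protein that binds influenza virus NS1, had 7 probes of 7 sequences, all higher in LW by 0.65 to 0.83, of which 6 were called. On the brightest, LW read 12.98, 12.56, 12.90, 12.74 and 12.77 and CR 11.87, 12.08, 12.31, 12.33 and 11.92. The breeds did not overlap on any of the 7 probes, although no probe kept its call in more than 6 of the 10 fits without 1 array. TNNC2, a troponin of fast skeletal muscle, had 6 of 7 probes called at 0.72 to 1.06, while its brightest differed by 0.06. On the 6 probes every LW array was well above background and LW TN 2 was the highest. On 2 of them only 1 CR array was above background, and on some of the others not every CR array was. The differences of all these probes are therefore not exact. Their calls held in 3 to 10 of the 10 fits without 1 array.

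USF1, a transcription factor that binds E-box sequences and regulates lipid and glucose genes, was lower in LW by −1.40, −1.32, −0.84 and −1.01 on 4 called probes, and by −0.35 (adjusted p 0.056) on the fifth. Its brightest probe read 7.79, 8.06, 7.92, 7.77 and 7.65 in LW and 9.70, 9.21, 8.62, 9.47 and 9.19 in CR, without overlap, and was called in all 10 fits without 1 array. SLC44A4, a transporter of thiamine pyrophosphate and choline, was higher in LW on 3 called probes by 1.40, 1.38 and 1.32. Its remaining probes differed by 0.70, 0.61 and 0.23. The lowest CR array on the brightest probe was CR TN 1 at 11.86 and the highest CR TN 2 at 13.49, just below the lowest LW array at 13.76, and these calls held in 3 of 10 fits (adjusted p up to 0.11).

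In 4 further genes every probe had the same sign and few were called. B2M, the light chain of MHC class I molecules, had higher values in LW on all 10 probes, by 0.29 to 0.54, and 2 probes of 1 sequence were called (limma adjusted p 0.044 and 0.042). Without LW TN 2 and CR TN 1 these rose to 0.070 and 0.065. APOE, the main lipid carrier of the brain, differed by 0.95, 0.83 and 0.93 and was called on the last probe only (adjusted p 0.041, and 0.075 without both arrays). ESR1, the oestrogen receptor alpha, differed by 0.28 to 0.61 on 6 probes. One of them was called (limma adjusted p 0.014) and kept its call in all 10 fits. GHR, the growth hormone receptor, had lower values in LW on all 7 probes. The differences were −0.29 to −0.43 on 6 and −1.22 on the called one (adjusted p 0.022, lost without CR TN 4, CR TN 5 or LW TN 1).

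In other genes the probes fell into 2 sets. GLRX, a glutaredoxin that reduces protein disulfides, was higher in LW by 1.05, 1.00 and 0.92 on 3 called probes and differed by −0.14 and 0.05 on the others. The first 2 were called in all 10 fits without 1 array and the last only in that without LW TN 2. WDR3, a ribosome assembly factor, was lower by −1.37 and −1.29 on 2 called probes, with −0.22, −0.05 and 0.07 on the rest, and both calls held in all 10 fits. RAP1A, a small GTPase, was higher by 0.67, 0.60 and 0.54 on 3 probes and within 0.18 log2 units of 0 on 4 others, and its calls held in 10, 6 and 2 fits. PDE4B, a cAMP phosphodiesterase, differed by 0.86 and 0.61 on its 2 dimmest probes and by −0.01 and −0.0034 on the others, and its calls held in 7 and 2 fits. For these genes the named gene as a whole cannot be said to be higher or lower.

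SELENOF, a selenoprotein of the endoplasmic reticulum (chromosome 4, 129258943 to 129287727), had the widest difference of all called probes, on 1 probe of 6. Its dimmest probe read 6.41, 6.0, 7.51, 7.28 and 7.56 in LW and 10.46, 11.56, 11.71, 10.62 and 10.64 in CR. The groups were nearly 3 log2 units apart at their closest. The difference was −4.04 (SE 0.35, limma adjusted p 0.00042), 16.5-fold lower, and was called in all 10 fits. Its other 5 probes differed by −0.13 to 0.11, with adjusted p-values of 0.78 or more. F1 TN animals were spread widely on the called probe, at 8.54 ± 1.97 (n = 6). The called probe and probe 4 overlap by 30 bases with 2 mismatches. The overlap is shown with the mismatched bases in capitals. Counted from 1 at the 5′ end of the bases printed, and with the called probe's base first, they are A4T and A26T.
SELENOF called probe, bases 31 to 60: tctAccattgatcagtctcttaccgAgagg
SELENOF probe 4, bases 1 to 30: tctTccattgatcagtctcttaccgTgagg

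A like pair was found in PIK3R5, a regulatory subunit of phosphoinositide 3-kinase, chosen after its values were seen. Its called probe differed by 0.73 (limma adjusted p 0.030, called in 2 of 10 fits) and a probe that overlaps it by 51 bases with 2 mismatches by −0.02. Its remaining probe, which overlaps the called one by 58 bases with 0 mismatches, differed by 0.58 (adjusted p 0.068). In the 30 bases shown, counted and ordered as before, the mismatches are G3A and C15A. The transcript sequence of these animals at the mismatched bases was not measured.
PIK3R5 called probe, bases 1 to 30: tcGtcctaggacccCaaatggaatttaacg
PIK3R5 overlapping probe, bases 10 to 39: tcAtcctaggacccAaaatggaatttaacg

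The pattern of 1 called probe among 3 or more, with every other at an unadjusted p of 0.05 or more, was found in 6 genes. Besides SELENOF, those with the widest differences were EPHX2, CIB2 and NDUFA4L2. EPHX2, the soluble epoxide hydrolase, was lower in LW by −0.96 on its brightest probe (LW 12.21, 11.63, 11.52, 11.71 and 11.64, CR 12.90, 12.43, 12.62, 12.82 and 12.73, limma adjusted p 0.012) and differed by 0.04, 0.05 and −0.22 on the others. LW TN 1 stood above the other LW arrays. CIB2, a calcium-binding protein of the inner ear, was lower by −0.67 on 1 probe (adjusted p 0.027, called in 3 of 10 fits) against −0.22 to −0.17. NDUFA4L2, a mitochondrial protein induced by low oxygen, was higher by 0.66 on 1 probe (adjusted p 0.038, called in 1 of 10 fits, that without CR TN 1) against 0.09 and 0.22. TIAM1, an activator of the GTPase RAC1, was the only gene called in both directions, by −0.77 on 1 probe (adjusted p 0.045, called in 1 of 10 fits) and by 0.47 on another (adjusted p 0.026, called in 6 of 10). Without LW TN 2 and CR TN 1 the first was not called (adjusted p 0.068), and with slide as a fixed block neither was (adjusted p 0.084 and 0.054). Its other probes differed by 0.03 and 0.22. DCPS, which removes the cap from degraded mRNA, and LZTFL1, a protein of ciliary traffic, each had 1 probe called at 1.64 and −1.27 and a second at −0.04 and 0.02, and both calls held in all 10 fits.

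Functions were examined with 30 gene lists, each gene represented by its brightest probe. Over all 11563 named genes, 60 of these probes were called (0.519%), 1060 had an unadjusted p under 0.05 (9.17%), 51.5% were higher in LW and the median difference was 0.0043. In the lists, 9 members were called in all. The total number of list members is not given, so this count is not set against the 0.519%. The hormone genes are described first because they define the gland.

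None of the 7 hormone genes was called on any of their 25 probes, and none of the brightest had an unadjusted p under 0.05. GH1, growth hormone, averaged 19.01 ± 0.11 in LW and 19.06 ± 0.02 in CR (SD, n = 5). PRL, prolactin, averaged 18.77 ± 0.32 and 18.83 ± 0.10, with LW TN 2 at 18.20 below the other LW arrays. POMC, the precursor of corticotropin, averaged 19.01 ± 0.07 in LW and differed by 0.01 (SE 0.07). CGA, the alpha chain shared by the glycoprotein hormones, differed by 0.07. The group means of these 4 probes lay within 1 log2 unit of the highest value on the arrays, 19.36. No spot was saturated, but the range left above them was small. LHB and FSHB, the beta chains of the gonadotropins, differed by 0.17 (SE 0.19) and 0.31 (SE 0.26).

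TSHB differed by −1.14 (SE 1.42, limma adjusted p 0.91). LW TN 2 at 8.55 and CR TN 1 at 10.57 were far below the others, which ranged from 14.75 to 15.56 in LW and from 15.72 to 16.34 in CR. Without both arrays every CR array lay above every LW array, and the difference of −0.92 had an adjusted p of 0.056. In the HS animals it was −1.73 (limma adjusted p 0.00017), or −1.46 (adjusted p 0.11) with 1 array of conflicting labels, LW HS 3, taken as Creole.

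**Figure D2:**
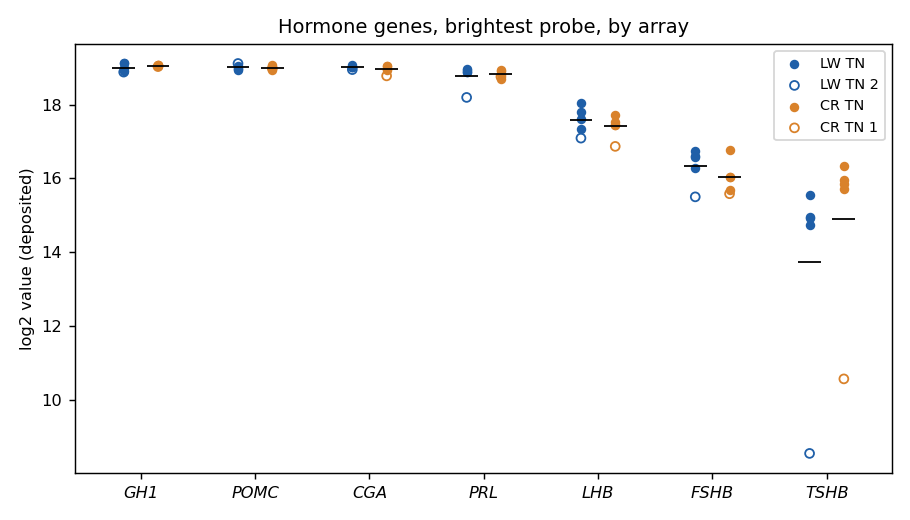
Log2 values (y axis) of the brightest probe of each hormone gene on the LW TN and CR TN arrays, with group means as bars and open symbols for LW TN 2 and CR TN 1. The breeds overlap on every hormone, and the open symbols are lowest for TSHB, at 8.55 and 10.57.

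Among 30 receptors and regulators of the hormone axes, DIO2 was called, and 2 members were higher and 5 lower in LW at an unadjusted p under 0.05, with a median of −0.04. DIO2, which converts the prohormone thyroxine to active triiodothyronine, read 11.86, 11.48, 11.85, 11.86 and 11.52 in LW and 12.35, 12.18, 12.36, 12.32 and 12.29 in CR. With no overlap, the difference was −0.58 (SE 0.10, limma adjusted p 0.026). A second probe of the same sequence differed by −0.55 (adjusted p 0.063). The call was lost in 5 of 10 fits without 1 array, without CR TN 1, CR TN 3, CR TN 4, CR TN 5 or LW TN 5 (adjusted p up to 0.076). GHRHR, the receptor for growth hormone-releasing hormone, averaged 12.19 ± 0.13 in LW and 12.64 ± 0.20 in CR without overlap, a difference of −0.45 (SE 0.11, limma adjusted p 0.105), with −0.49 on its second probe. Without LW TN 2 and CR TN 1 these were −0.54 and −0.56 and passed the threshold (adjusted p 0.047 and 0.048). GHSR, the ghrelin receptor, differed by −0.42 and TRHR, the receptor of thyrotropin-releasing hormone, by −0.48 (adjusted p 0.16 and 0.47). Of 26 lineage transcription factors, 0 were called and 1, NEUROD1, had an unadjusted p under 0.05 (−0.58, adjusted p 0.097).

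Of 44 collagens and matrix genes, 14 had values above 0, 12 were lower and 1 was higher at an unadjusted p under 0.05, and the median was −0.14. LAMB1, a laminin chain of basement membranes, was the 1 member called, at −0.62 (LW 9.50, 9.54, 9.35, 9.94 and 9.35, CR 10.13, 10.33, 10.11, 10.14 and 10.07, limma adjusted p 0.038). LW TN 4 lay nearest to CR, and the call was kept in 1 of 10 fits, that without LW TN 4, and lost without both LW TN 2 and CR TN 1 (adjusted p 0.068) and with slide as a fixed block (0.070). The fibrillar collagens COL1A1, COL1A2 and COL3A1 differed by −0.63, −0.52 and −0.71, COL15A1 of basement membranes by −0.97, and the proteoglycan DCN by −0.63 (adjusted p 0.50, 0.22, 0.35, 0.10 and 0.30), none of them called. In the HS animals, with LW HS 3 as titled, the 6 DCN probes differed by −0.68 to −0.83 and were called (limma adjusted p up to 0.017). The COL1A1 probes differed there by −0.59 and −0.60 and were not called (adjusted p 0.12 and 0.094). LAMC1, another laminin chain, differed by 0.87 (adjusted p 0.11). The mean level of the list overlapped between breeds, 10.57 to 10.90 in LW and 10.72 to 11.07 in CR, and was highest in each on LW TN 2 and CR TN 1. Of the fibroblast markers, PDGFRA differed by 0.02. LUM, a proteoglycan, differed by −0.07 on the brightest of 11 probes and was called on 1 of them at −0.50 (adjusted p 0.047), in 0 of 10 fits without 1 array. The part of fibroblast content in the collagen values was not tested.

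Of 39 leukocyte markers measured, 11 were higher and 0 lower at an unadjusted p under 0.05, 27 were above 0, the median was 0.13, and 0 were called. C1QA, C1QB and C1QC, the complement subunits made by macrophages, differed by 0.51, 0.44 and 0.57 and the Fc receptor FCGR1A by 0.86 (adjusted p 0.11, 0.48, 0.16 and 0.30). The markers CD163 and PTPRC, of macrophages and of all leukocytes, differed by −0.48 and −0.05. TREM2, a receptor of macrophages and microglia with 1 probe, was called outside the list at 1.01 (adjusted p 0.042, called in 3 of 10 fits). The list's mean level ranged from 8.69 to 9.02 in LW and from 8.55 to 8.82 in CR, and LW TN 2 was the highest. In the HS animals, with LW HS 3 as titled, the median of the list was 0.04. There C1QA, C1QB, C1QC and FCGR1A differed by 0.22, 0.02, 0.08 and 0.21, and TREM2 by 0.12. CD163 and PTPRC differed by −0.50 and 0.07 in HS. None of these was called.

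Of 41 interferon-stimulated genes, 8 were higher and 1 lower at an unadjusted p under 0.05 with a median of 0.12. IFIT2 and IFIT3 did not overlap between breeds, with differences of 0.31 and 0.43 (adjusted p 0.076 and 0.083), and CXCL10, a chemokine, differed by −0.57 (adjusted p 0.35). XAF1, which promotes apoptosis, was called on its second probe at 1.62 (adjusted p 0.028, kept in 2 of 10 fits) and differed by 0.66 on its brightest. Of 29 genes of the MHC and antigen presentation, 2 were higher at an unadjusted p under 0.05, B2M and SLA-8 (0.37 and 0.47, adjusted p 0.11 and 0.45), with a median of 0.10. Outside this tally of brightest probes, a probe named for SLA-3 was called at 1.27. In the HS animals it differed by 1.23 (limma adjusted p 0.033), or by 1.02 (adjusted p 0.31) with LW HS 3 taken as Creole. Some SLA class I genes are close in sequence, and a probe named for one may read others.

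Of 24 immediate early genes measured, 3 had values above 0, with a median of −0.18, 4 lower and 0 higher at an unadjusted p under 0.05, and 0 called. CCN2, a matricellular protein induced by growth factors, differed by −0.75 without overlap (adjusted p 0.063), CYR61 by −0.50, and the transcription factor JUN by −0.50 (adjusted p 0.31 and 0.29). Their mean level ranged from 9.47 to 9.78 in LW and from 9.73 to 10.19 in CR. In the HS animals the median was 0.0068.

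Of 15 pigment cell and coat colour genes, KIT was called and 3 were higher and 2 lower at an unadjusted p under 0.05. Apart from KIT these were GPR143, a melanosome receptor (0.56, adjusted p 0.13), ASIP, the agouti signal (0.38), EDN3 (−0.42) and SLC45A2, a melanosome transporter (−0.52). The median of the list was −0.12.

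Of 49 detoxification enzymes, CYP1A2 was called higher and EPHX2 lower, and 6 and 5 had an unadjusted p under 0.05 in each direction. CYP1A2, a cytochrome P450 of drug metabolism, read 9.27, 9.50, 8.61, 9.13 and 9.03 in LW and 8.22, 8.65, 7.79, 7.95 and 7.74 in CR. LW TN 3 and CR TN 2 overlapped, the difference was 1.04 (SE 0.20, limma adjusted p 0.042) and it was called in 2 of 10 fits (adjusted p up to 0.12) and not without both LW TN 2 and CR TN 1 (adjusted p 0.067) or with slide as a fixed block (0.106). GSTA1, a glutathione transferase, differed by 1.26 (SE 0.35, adjusted p 0.19).

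Of 42 lysosome and autophagy genes, 9 were higher and 3 lower at an unadjusted p under 0.05. LIPA, the lysosomal acid lipase, was called at −0.55 (LW 12.48, 12.22, 12.36, 12.70 and 12.31, CR 12.74, 13.08, 13.09, 13.00 and 12.91, limma adjusted p 0.045, kept in 2 of 10 fits, those without CR TN 1 or LW TN 4). The probes of LIPA numbered 4, of which 3 had differences of −0.50 to −0.55 and 1 of 0.08. The cathepsins CTSA and CTSD differed by 0.35 and 0.36 and the glucuronidase GUSB by 0.37, with adjusted p-values of 0.14, 0.20 and 0.12. Of 55 genes of oxidative phosphorylation, 3 were higher and 3 lower, with a median of 0.02. COX7C, a subunit of cytochrome c oxidase, was called at −0.46 (LW 14.82 to 15.23, CR 15.40 to 15.61, adjusted p 0.045) but in 0 of 10 fits without 1 array (adjusted p up to 0.13) and not without both LW TN 2 and CR TN 1 (adjusted p 0.086). Of 31 voltage-gated ion channels, SCN8A, a sodium channel, was called at −0.92 (LW 8.69, 8.62, 8.73, 9.02 and 8.58, CR 9.61, 9.99, 9.49, 9.34 and 9.78, limma adjusted p 0.012) and kept its call in all 10 fits, but not with slide as a fixed block (adjusted p 0.059).

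The IGF list gave IGFBP5 as its 1 call among 21 genes, with IGFBP3 at 0.61 and GRB10 at 0.58 (adjusted p 0.14 and 0.35). Of 27 genes of secretory granules and prohormone processing, 0 were called on the brightest probe and 3 were higher at an unadjusted p under 0.05. They were RAB27B, which docks secretory granules (0.95, adjusted p 0.070), PCSK2, which cleaves prohormones (1.41, adjusted p 0.14), and GGH (0.56, adjusted p 0.25), whose 7 probes all differed by 0.56 to 0.68 and of which 1 was called. RAB27B and PCSK2 did not overlap between breeds. In the remaining lists 0 members were called on the brightest probe. Their medians lay between −0.06 (circadian clock, 20 genes) and 0.08 (endothelial and mural cells, 20 genes), with heat shock proteins (46 genes) at 0.0017, the proteasome (63 genes) at 0.0007 and cytosolic ribosomal proteins (72 genes) at −0.04. In the endothelial and mural list KDR and RGS5 did not overlap between breeds (1.04 and 0.81, limma adjusted p 0.078 and 0.099). KLF4 of that list differed by −0.54 (adjusted p 0.58). In the complement list CD55 did not overlap (0.76, adjusted p 0.064), and C6 differed by −0.94 (adjusted p 0.47).

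The same probes were then read in other animals of both breeds, 6 LW HS and 6 CR HS arrays, which share no array with the TN comparison. On 1 of them, LW HS 3, the title names Large White and the breed field Creole. It was grouped by its title. There 1195 of 45667 probes were called (2.62%), 720 without LW HS 3 (1.58%) and 51 with it taken as Creole (0.112%). The number of calls in HS therefore depended on how this array was grouped. Of the 294 probes called at TN, 290 had the same sign in HS, compared with 59.6% of all probes, and 288 did with LW HS 3 taken as Creole. Grouped by title, 140 (47.6%) were called with that sign and represented 45 named genes. The count was 124 without LW HS 3 and 17 with it taken as Creole.

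Grouped by title, OAZ3, ODF3B and KIT differed in HS by 2.02, 2.23 and 1.50 (limma adjusted p 0.018, 0.0016 and 3.2e-05) and the SELENOF probe by −4.18 (adjusted p 2.6e-05). ADH4, PNPLA4, MSRB2, IGFBP5, PHF2, C1GALT1, USF1, GHR, SLC44A4, NDUFA4L2 and the 6 called probes each of IVNS1ABP and TNNC2 were also called with the same sign. Without LW HS 3 the calls of ADH4 (adjusted p 0.061), PHF2 (0.055) and 1 of the MSRB2 probes (0.060) were lost. With LW HS 3 taken as Creole, OAZ3 differed by 2.46 (adjusted p 1.1e-05) and NDUFA4L2 by 0.75 (0.027). Of the others, 3 of the called USF1 probes, 1 IGFBP5 probe and 2 TNNC2 probes were still called. ODF3B at 1.80 (adjusted p 0.18), KIT at 1.28 (0.077), SELENOF at −3.61 (0.067) and the others named here were then not called. Grouped by title, CDH16 differed by only −0.32 (adjusted p 0.70), CLDN12 by 0.80 (adjusted p 0.13), CALCR by 0.64 (adjusted p 0.33), NLGN3 by −0.66 (adjusted p 0.13), CYP1A2 by 0.39 and COX7C by −0.09. The GLRX probe with 1.05 at TN was at 0.14 in HS. Whether the difference between breeds itself changed from TN to HS was tested with the interaction over all 33 arrays. In it limma called 0 probes (smallest adjusted p 0.92), with 2405 at an unadjusted p under 0.05 (5.27%), of which 44 were among the 294. The 294 were chosen for their TN differences, which the interaction uses again, so that smaller differences in HS and low unadjusted p-values follow in part from the choice, and nothing is read from the 44.

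**Figure D3:**
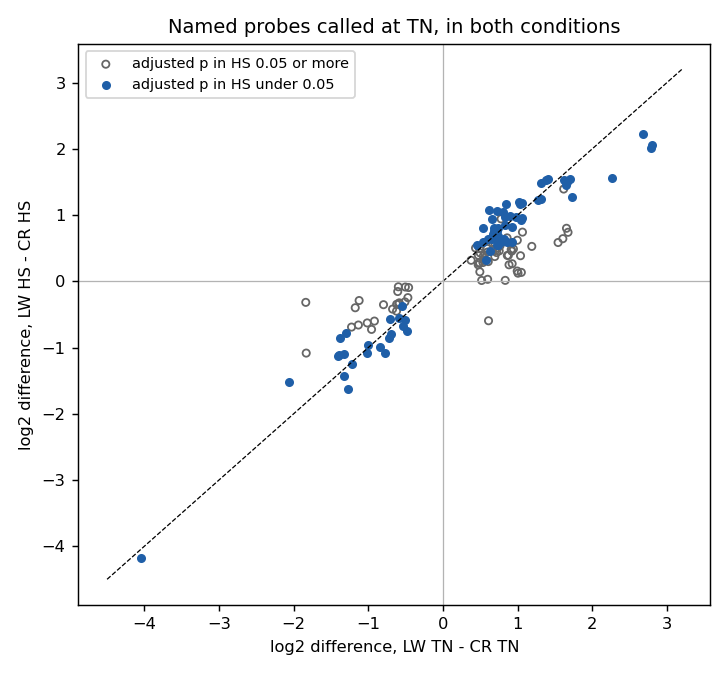
Difference between breeds in HS animals (y axis) against that in TN animals (x axis), both log2, for each named probe called at TN, with filled points where the HS difference was also called. Over all 294 called probes 290 have the same sign in both, and the dashed line marks equal differences.

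In the F1 TN animals, 259 of the 294 called probes had a mean between those of LW and CR, 30 lay beyond LW and 5 beyond CR. Of all probes 33.5% had an F1 mean between the breeds, against 88.1% of the 294. The 294 were chosen for wide gaps between LW and CR, within which a mean falls more easily, and nothing is read from this share. On a scale from 0% at the CR mean to 100% at the LW mean, their median position was 59.8% (quartiles 38.6% and 80.1%). KIT was close to the middle, ODF3B, C1GALT1, NLGN3 and MSRB2 were close to LW, and EPHX2 was close to CR at 12.63 ± 0.36 against 12.70 ± 0.18.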

How the data were processed

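The authors read the arrays with Agilent Feature Extraction 10.10.1.1, quantile-normalised the median pixel intensity of each spot between arrays without background correction, kept the probes that passed quality control, and deposited the result as log2 values for 45667 probes. The scanner files deposited beside them hold the spot intensity values, from which the rebuilt alternatives were made, and the marks for saturation and for signal well above background. Rebuilt and deposited values differed by a median of 0.0038 log2 units. Between 76.5% and 80.4% of spots were well above background on the LW TN and CR TN arrays, and 0 were saturated. The number of arrays limits the precision.

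Probes were named by the gene name of the scanner files, which can be old. Where that name was not a symbol of the annotation, a symbol was sought by gene ID, transcript accession, synonym or upper case. Failing these, the name of the files was kept unless it had the form of an identifier. In all, 24052 probes carried a name. C4H8orf37 and C8ORF37 may be 1 gene under 2 names. LW TN and CR TN were fitted with limma 3.58.1 in R 4.3.3 on these 10 arrays, without covariates, since pen, slaughter group and parents, which the study's own model used, are not in the labels. P-values were adjusted over all probes. The HS contrast used its own arrays, and the interaction all 33. The script was tested on simulated data.

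Genes named by rule were those with every probe called, those with 1 probe and the widest differences, those called on 1 of several probes and those called in both directions, with the called members of 30 gene lists and the hormones. Other genes were chosen after their values were seen. The members, rules and lists were chosen with earlier results of these data known. Alternatives changed the normalization, background filter, samples in the fit, array weights, slide terms and single arrays.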

Additional observations from a re-analysis of the deposited data

Results flagged for a closer look

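For the 33 probes named by rule, each of the groups LW TN, CR TN and F1 TN was searched for an array far from the others, by the gap to its nearest neighbour as a share of the group's range. Of 99 groups 7 passed the 95% limit, and chance passes about 1 in 20. TSHB was low on LW TN 2 (8.55 against 14.75 to 15.56, gap share 0.884) and on CR TN 1 (10.57 against 15.72 to 16.34, 0.892). PRL was also low on LW TN 2 (18.20 against 18.88 to 18.96, 0.899). CALCR was low on CR TN 4 (10.47 against 11.44 to 11.70, 0.787), and EPHX2 was high on LW TN 1 (12.21 against 11.52 to 11.71, 0.718). F1 TN 3 was low for MSRB2 (11.27 against 11.54 to 11.69, 0.645) and for PHF2 (9.31 against 10.20 to 10.64, 0.666).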

How the results depend on the processing

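With the main setting, 294 probes and 99 named genes were called between LW TN and CR TN, every probe was called in 7 genes, and 9 gene list members were called. Without LW TN 2 and CR TN 1, an alternative added after seeing the data, these were 442 probes, 164 genes, 18 and 12. With all groups in the fit there were 166 genes, 11 and 20, and without LW HS 3 as well 161, 12 and 19. Array weights gave 809 probes, 284 genes, 28 and 30, and slide as a random block 823, 284, 29 and 33. Slide as a fixed block gave 369 probes, 190 of them among the 294, 15 genes with every probe called and 18 list members, and the share of calls higher in LW was 51.2% against 59.5%. Processed signals scaled to the 75th percentile gave 213 probes and 3 list members. Without 1 array there were 130 to 422 probes (without LW TN 5 and LW TN 2), 39 to 149 genes, 4 to 15 genes with every probe called and 3 to 9 list members. The interaction had 0 to 1 calls without 1 array and 1 without both arrays. LW HS against CR HS gave 720 probes without LW HS 3 and 51 with it taken as Creole. Variance trend, rebuilt values, normexp and the background filters gave 257 to 296 probes. Of 25 named calls, 14 to 25 held in each alternative and none reversed. Without LW TN 2 and CR TN 1, 21 held, and COX7C, CYP1A2, LAMB1 and 1 TIAM1 probe were lost. Slide as a fixed block kept 19 and lost CYP1A2, LAMB1, PNPLA4, SCN8A and both TIAM1 probes. COX7C was lost in every fit without 1 array, and LAMB1, NDUFA4L2, PNPLA4, LIPA, CYP1A2, CIB2 and 1 TIAM1 probe in 7 to 9 of the 10. DIO2, MSRB2, IGFBP5 and the other TIAM1 probe were lost in 2 to 5. With all groups in the fit CYP1A2, COX7C and IGFBP5 were lost, and with processed signals CIB2, COX7C, CYP1A2, DIO2, IGFBP5, LAMB1, LIPA, NDUFA4L2 and 1 TIAM1 probe. The cause was not tested. Animals were not paired, because the labels give no replicate numbers shared between the groups. Comparison within slides is the slide block given above.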

Other observations

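Of the 294 called probes, 153 carried no gene name. The widest increases among them were TC592761 at 3.45 (SE 0.22, limma adjusted p 3.4e-05), which differed by 3.12 in HS, and AJ963268, which was not well above background on any CR array and at least 5.73-fold higher in LW (adjusted p 1.9e-06). TC623853 and ENSSSCT00000014687 were lower in LW, by −2.50 and −2.17 (limma adjusted p 0.011 and 8.2e-05).

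By the RefSeq annotation of Sscrofa11.1, 95 of the 99 called genes were placed, on 18 chromosomes, with 11 each on chromosomes 4 and 7 and 10 on chromosome 9. In 7 pairs of called genes the starts were within 1 Mb, and 5 pairs had the same sign, among them RAP1A and ADORA3 (178.8 kb apart) and NHEJ1 and GLB1L (171.2 kb). ACTA2 and LIPA (263.2 kb) and SELENOF and CLCA4 (303.6 kb) had opposite signs. The share of all named genes on these chromosomes and the number of such pairs among them are not given. Nothing is therefore read from these counts.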
